A study of Mus musculus with 6 samples.

Results

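The genes examined were Txnip, Arrdc4, Arrdc3, Mlx and Mlxip: the glucose-sensing factor MondoA (encoded by Mlxip), its binding partner Mlx and 3 alpha-arrestin genes tied to them. They were chosen by name, all 5 were matched by symbol to 1 Ensembl ID each, and they are 5 of the 28773 gene IDs quantified. RNA-seq had been carried out on splenic CD8+ T cells of mice on day 35, in 3 MWA+PBS samples and 3 MWA+2DG samples. In both groups tumor-bearing mice had received microwave ablation (MWA), which destroys the tumor by heat. MWA+PBS mice were then injected with the PBS vehicle and MWA+2DG mice with 2-deoxy-D-glucose (2DG), a glucose analogue that blocks glycolysis, and the injections had ended some days before the cells were collected. The comparison addresses how metabolic genes of these T cells differed after the inhibitor. The labels give no strain, age or tumor line for these samples and do not say whether a sample was 1 mouse or a pool, and there was no group without ablation. The p-values therefore measure the spread between these samples, which may be technical.

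MondoA and the related factor ChREBP (Mlxipl) sense glucose through glucose 6-phosphate. When hexokinase raises this metabolite, MondoA moves to the nucleus as a dimer with Mlx and binds paired E-boxes, called carbohydrate response elements, above all in Txnip and Arrdc4. Txnip, the thioredoxin-interacting protein, takes glucose transporters off the cell surface and binds thioredoxin, so the circuit acts as a brake on glucose uptake. 2DG is itself phosphorylated by hexokinase to a product that is known to activate MondoA in cultured cells. In T cells Txnip is abundant at rest and is known to fall when the cells are activated.

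The sequences next to the start sites were examined first, since MondoA and Mlx bind E-boxes. The 250 bases before the RefSeq start (build GRCm38.p6, matched by symbol for all 5 genes) are shown for the 3 alpha-arrestin genes and Mlx, which differ in whether they hold an E-box, a paired match or neither, and in its position. Capitals mark the E-box CACGTG or, in Txnip, both copies of a paired match, with the spacer in lower case.
Txnip (chr3:96557707-96557956, plus strand): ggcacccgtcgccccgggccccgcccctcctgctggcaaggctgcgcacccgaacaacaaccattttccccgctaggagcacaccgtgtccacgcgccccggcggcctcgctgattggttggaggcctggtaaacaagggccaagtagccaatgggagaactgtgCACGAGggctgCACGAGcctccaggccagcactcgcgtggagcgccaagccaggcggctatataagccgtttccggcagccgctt
Arrdc4 (chr7:68749239-68749488, minus strand): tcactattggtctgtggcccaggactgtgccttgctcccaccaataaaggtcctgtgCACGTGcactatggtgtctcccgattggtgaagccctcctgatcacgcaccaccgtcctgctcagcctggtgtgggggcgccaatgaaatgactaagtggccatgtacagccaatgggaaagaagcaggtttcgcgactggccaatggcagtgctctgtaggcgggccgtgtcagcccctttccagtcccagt
Arrdc3 (chr13:80883134-80883383, plus strand): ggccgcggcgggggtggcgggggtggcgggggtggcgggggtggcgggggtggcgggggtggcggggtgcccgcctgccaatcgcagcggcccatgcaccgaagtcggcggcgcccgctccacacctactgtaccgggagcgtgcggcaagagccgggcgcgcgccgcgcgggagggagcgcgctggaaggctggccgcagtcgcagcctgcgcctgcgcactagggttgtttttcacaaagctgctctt
Mlx (chr11:101087040-101087289, plus strand): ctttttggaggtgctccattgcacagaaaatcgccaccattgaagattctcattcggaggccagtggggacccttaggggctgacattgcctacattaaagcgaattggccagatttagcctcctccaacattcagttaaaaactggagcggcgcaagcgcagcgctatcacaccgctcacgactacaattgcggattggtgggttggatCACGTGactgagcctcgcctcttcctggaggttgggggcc
The Txnip stretch held a direct repeat of the E-box-like letters CACGNG with 5 bases between the copies (both strands searched), from 85 to 69 bases before the start. This pattern was found in 15 of the 32851 RefSeq promoter windows of the same length, or 0.0457%. The inverted form, CACGNG and then CNCGTG after 5 bases, was in 0.0396% of windows and in none of the members. Arrdc4 held 1 E-box, from 193 to 188 bases before the start, and Mlx held 1, from 40 to 35 bases before it. An E-box can by its letters overlap a copy of the paired patterns, and 6.02% of windows held one. Arrdc3, with 3 listed starts, and Mlxip held neither an E-box nor a paired match in these windows. The CCAAT box (both strands) was in 33.8% of windows. It occurred 6 times in Arrdc4, 2 times in each of Txnip, Mlx and Mlxip, and 1 time before the first start of Arrdc3. A match describes letters and does not show binding.

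**Figure D1:**
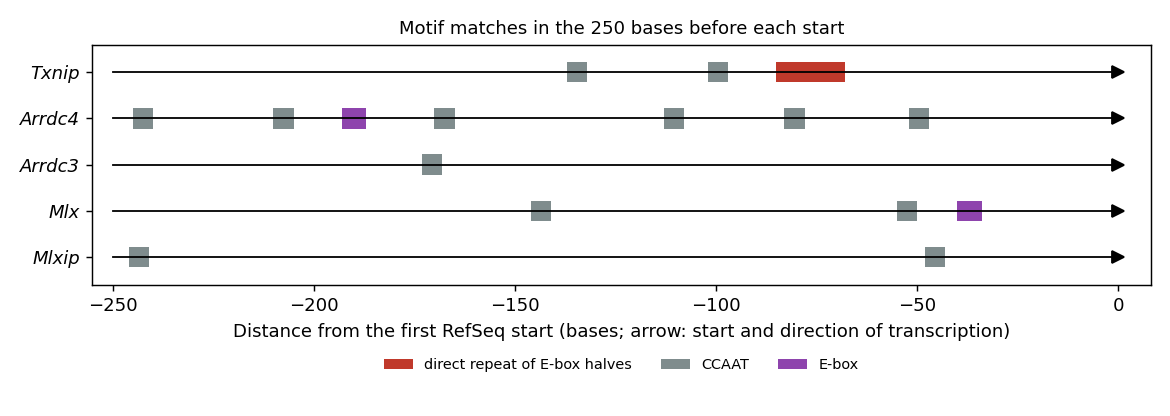
Matches to the E-box (purple), the direct repeat of E-box-like letters (red) and the CCAAT box (grey) in the 250 bases before the first RefSeq start of each gene, with the distance from the start in bases on the x axis. Of these 5 genes the paired match stands only in the Txnip row, and single E-boxes stand in those of Arrdc4 and Mlx.

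Expression was given as FPKM, a level per transcript length and per library size, and the depth of each library is unknown. Between 22414 and 23340 genes were above 0 in each sample, and 12444 genes with a mean FPKM of at least 1 were tested, all 5 members among them. The T lineage list of 18 genes, which holds Cd3e, Cd8a and Cd8b1, had a summed level of 1828 to 1937 FPKM over the MWA+PBS samples and of 2558 to 2745 FPKM over the MWA+2DG samples, and 16 of its genes were higher in MWA+2DG. Transcripts of other cells were also present and moved with the groups. So did immediate early and heat shock genes, which were listed as a sign of sample handling. The summed level of 8 neutrophil markers was 56.0 to 82.2 FPKM against 1548 to 1729 FPKM with 2DG, and that of 8 B cell markers was 9.15 to 10.3 FPKM against 51.9 to 57.6 FPKM. In the other direction, 9 macrophage markers went from 568 to 619 FPKM down to 86.5 to 93.4 FPKM, 7 erythroid markers from 287 to 344 FPKM down to 66.5 to 84.0 FPKM, and 10 immediate early and heat shock genes from 846 to 893 FPKM down to 127 to 131 FPKM. Every gene of the neutrophil, B cell, macrophage and erythroid lists passed the test in the direction given, as did 9 of the 10 immediate early and heat shock genes. Of the markers on these lists only the B cell gene Fcer2a was listed at 0 in any sample. The sums of 4 CD4 T cell markers (5.69 to 6.42 FPKM and 5.19 to 5.71 FPKM) and 6 dendritic cell markers (8.85 to 9.94 FPKM and 3.47 to 4.27 FPKM) were low, and of the genes tested both dendritic cell markers (Flt3 and Itgax) and 1 of 3 CD4 T cell markers (Cd4) were called lower. The mitochondrial share of the FPKM was 21.4% to 22.8% in the MWA+PBS samples and 19.4% to 20.7% in the MWA+2DG samples, and 12480 to 12515 genes against 12198 to 12282 genes had an FPKM of at least 1, both without overlap. The part of these shifts in the members' results was not tested, and in bulk RNA fewer cells of a type cannot be told apart from less RNA per cell. No batch is given in the labels, and one shared by the samples of a group could not be separated from 2DG.

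Txnip was the most abundant of the 5 genes and was higher in MWA+2DG, Arrdc3 was higher at a low level, and Mlxip was lower, while Arrdc4 and Mlx did not pass the test. Thus 2 members were called higher and 1 lower at an adjusted p under 0.05, 3 of 5, in a comparison that called 39.4% of all tested genes (22.3% higher and 17.1% lower). The groups did not overlap in 3 members, against 52.1% of tested genes (30.2% higher and 21.9% lower). The thresholds of the study were a log fold change beyond 0.25 and a P under 0.05, with no base of the logarithm stated. Taken as log2 with an unadjusted P, they also took in 3 members and 38.2% of tested genes. With so large a background, these counts do not set the members apart from other genes.

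Txnip (ENSMUSG00000038393) was 203.32, 212.17 and 197.17 FPKM in MWA+PBS replicates 1 to 3 and 264.98, 251.24 and 282.23 FPKM in MWA+2DG replicates 4 to 6. Every MWA+2DG value lay above every MWA+PBS value. The group means were 204 ± 7.54 FPKM and 266 ± 15.5 FPKM (SD, n = 3), 30.3% higher with 2DG. On the log2(FPKM + 1) scale the difference was 0.38 ± 0.063 (SE), with a 95% confidence interval of 0.23 to 0.53 and a limma adjusted p of 0.00274. Of all tested genes, 85.6% had a lower log2 fold change. The call and the sign did not hold with T lineage genes as the reference (-0.048). By mean level Txnip ranked 123 among the 12444 genes without 2DG and 102 with it. The antisense gene that overlaps it, Gm15441, was between 0.13 and 0.82 FPKM.

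Arrdc4 (ENSMUSG00000042659), the other classic MondoA target, encodes an alpha-arrestin that also acts on glucose transporters. It was 11.11, 11.80 and 11.70 FPKM in MWA+PBS and 12.04, 12.58 and 11.63 FPKM in MWA+2DG, so the groups overlapped. The means were 11.5 ± 0.373 and 12.1 ± 0.476 FPKM (SD, n = 3). The log2 fold change was 0.061 ± 0.057 (SE), with a 95% confidence interval of -0.071 to 0.19 and a limma adjusted p of 0.425. Arrdc4 lay near the middle of the tested genes, 52.2% of which had a lower log2 fold change.

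Arrdc3 (ENSMUSG00000074794), an alpha-arrestin that recruits ubiquitin ligases to receptors such as the beta-2 adrenergic receptor, was low. It was 2.77, 2.89 and 3.22 FPKM in MWA+PBS and 4.04, 3.49 and 3.75 FPKM in MWA+2DG, without overlap. The means were 2.96 ± 0.233 and 3.76 ± 0.275 FPKM (SD, n = 3), and the log2 fold change was 0.27 ± 0.081 (SE; limma adjusted p = 0.0349). The call was lost without MWA+PBS replicate 1 or 2 and without MWA+2DG replicate 4 or 6, at limma adjusted p of 0.0668 to 0.118, and also with median ratio scaling (0.0669), without a filter on low values (0.0732) and with the column number as a replicate block (0.0755). With T lineage genes as the reference the sign turned (-0.16).

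**Figure D2:**
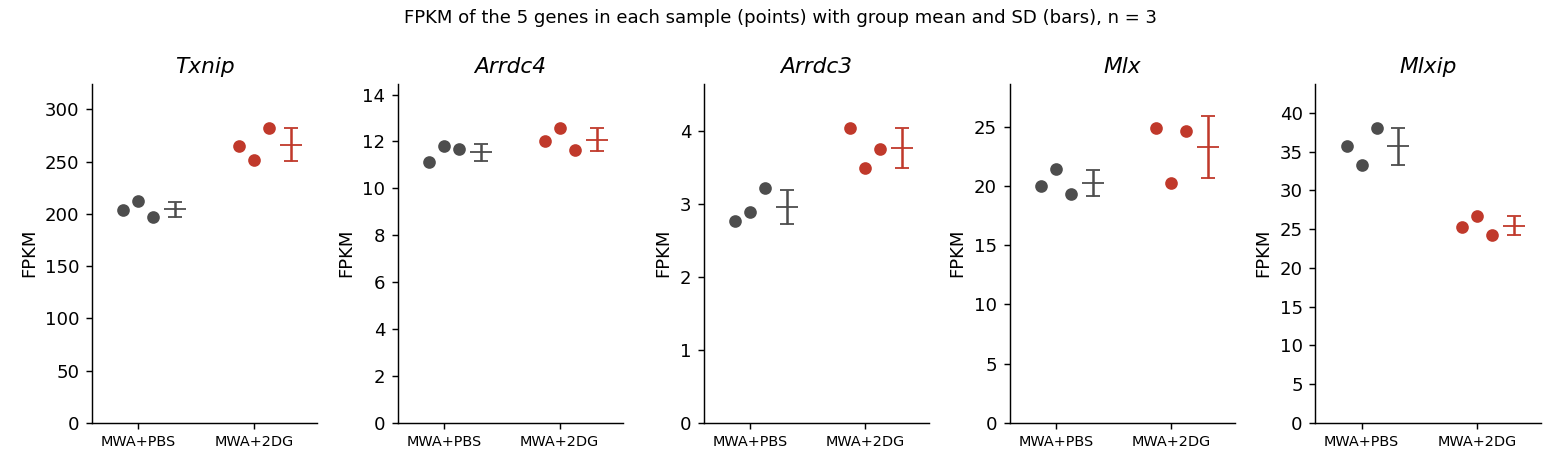
FPKM of the 5 genes (y axis, from 0, its own scale in each panel) in each of the 3 MWA+PBS samples (grey) and 3 MWA+2DG samples (red), with the group mean and SD. The groups are separate in Txnip, Arrdc3 and Mlxip, and Mlxip is the panel of these in which MWA+2DG is the lower group.

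Mlxip (ENSMUSG00000038342), which encodes MondoA itself, was lower in MWA+2DG. On the deposited FPKM this was opposite in sign to Txnip, but with the T lineage reference both were below 0 (-0.90 and -0.048). It was 35.73, 33.29 and 38.05 FPKM in MWA+PBS and 25.26, 26.72 and 24.28 FPKM in MWA+2DG, and every MWA+2DG value was below every MWA+PBS value. The means were 35.7 ± 2.38 and 25.4 ± 1.23 FPKM (SD, n = 3). The log2 fold change was -0.47 ± 0.066 (SE), with a 95% confidence interval of -0.63 to -0.32 and a limma adjusted p of 0.00122, and 10.2% of tested genes had a lower one. The genes that overlap Mlxip on either strand in GENCODE M21 were at most 0.45 FPKM.

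Mlx (ENSMUSG00000017801), the dimer partner that MondoA needs to bind DNA, was 20.05, 21.42 and 19.30 FPKM in MWA+PBS and 24.92, 20.28 and 24.64 FPKM in MWA+2DG. MWA+2DG replicate 5 lay within the MWA+PBS range and the other two lay above it. The means were 20.3 ± 1.07 and 23.3 ± 2.60 FPKM (SD, n = 3). The log2 fold change was 0.19 ± 0.087 (SE), with a 95% confidence interval of -0.016 to 0.39 and a limma adjusted p of 0.127. Without MWA+2DG replicate 5 it was 0.28 and passed the test (limma adjusted p = 0.0207). Mlx overlaps Psmc3ip on the opposite strand, which was between 1.24 and 2.14 FPKM.

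By mean FPKM, which is per length, the order of levels in both groups was Txnip, Mlxip, Mlx, Arrdc4 and Arrdc3. In MWA+PBS no ranges of neighbours in this order overlapped. With 2DG the ranges of Mlxip (24.28 to 26.72 FPKM) and Mlx (20.28 to 24.92 FPKM) overlapped, so these neighbours did not differ beyond their spread.

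Since T lineage transcripts made up more of the FPKM in MWA+2DG, the members were also expressed relative to them. The mean log2 fold change of the 18 T lineage genes was 0.43, with single genes between 0.054 and 0.69, and Txnip lay above 8 of the 18. With these genes as the reference Txnip was -0.048 (95% confidence interval -0.17 to 0.079, limma adjusted p = 0.449), and Arrdc3 was -0.16 (limma adjusted p = 0.128). Arrdc4 (-0.37, limma adjusted p = 0.00211) and Mlx (-0.24, limma adjusted p = 0.0178) were then called lower, and Mlxip was -0.90 (limma adjusted p = 5.54e-05). This reference lowers the log2 fold change of every gene by the same amount and takes the median over all tested genes from 0.046 to -0.38. It called 72.8% of tested genes (3.88% higher and 68.9% lower), and the share of calls that were higher went from 56.5% to 5.33%. Thus the direction of Txnip, Arrdc4, Arrdc3 and Mlx rests on the reference chosen, and Mlxip was lower in MWA+2DG with either.

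**Figure D3:**
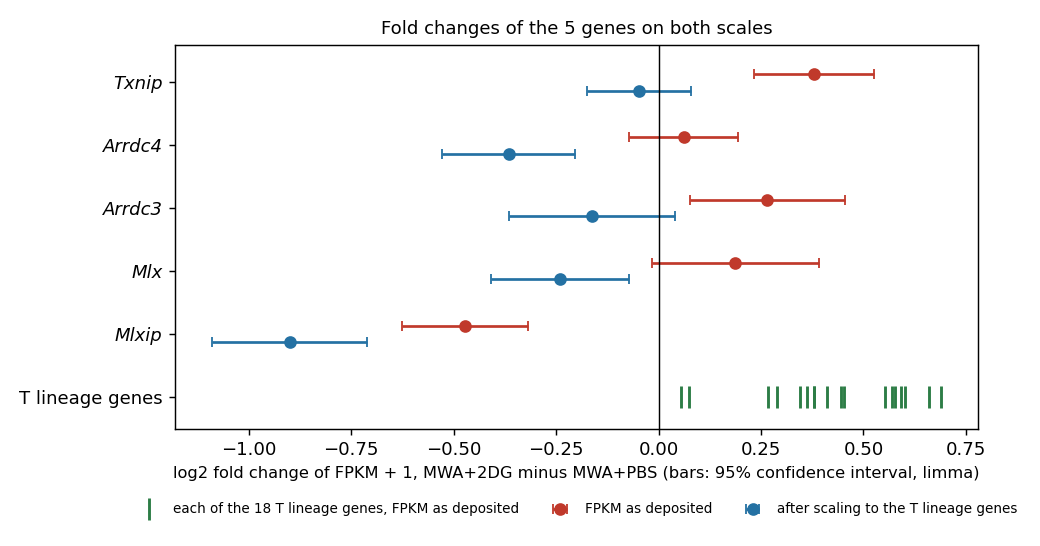
log2 fold changes (x axis, MWA+2DG minus MWA+PBS) of the 5 genes on the deposited FPKM (red) and with the T lineage genes as reference (blue), with 95% confidence intervals from limma, and those of the 18 T lineage genes as green ticks. Txnip lies among the T lineage genes at 0.38, and Mlxip lies below all of them on both scales.

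Apart from the pseudocount, ratios of 2 genes within a sample do not depend on how that sample was scaled, and 6 were compared. The log2 ratio of Txnip to Mlxip was 2.48, 2.64 and 2.34 in MWA+PBS and 3.34, 3.19 and 3.49 in MWA+2DG, a difference of 0.85 between groups that did not overlap. The ratios of Arrdc4, Arrdc3 and Mlx to Mlxip were also higher in every MWA+2DG sample than in any MWA+PBS sample, by 0.53, 0.74 and 0.66 on average. All of these ratios share Mlxip, which was itself lower. Of all other tested genes, 75.9% likewise had a higher ratio to Mlxip without overlap, with a median difference of 0.52, so a separation of this kind follows for most genes from the lower Mlxip. Mlx and Mlxip were thus nearly level in MWA+2DG (mean log2 ratio -0.13 ± 0.22, SD, n = 3), while Mlx was below Mlxip in MWA+PBS (-0.79 ± 0.17). The ratio of Txnip to Txn1, the cytosolic thioredoxin that Txnip binds, was 0.86 higher, and again the groups did not overlap, as was so for the ratio of Txnip to 63.8% of tested genes. Each of these 5 differences had a two-sided exact permutation p of 0.1, the smallest that 3 against 3 samples allow, and 0.12 after adjustment over the 6 ratios. The ratio of Txnip to the T lineage genes was 1.57 ± 0.036 and 1.52 ± 0.062 (SD), with overlapping groups (exact permutation p = 0.3).

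**Figure D4:**
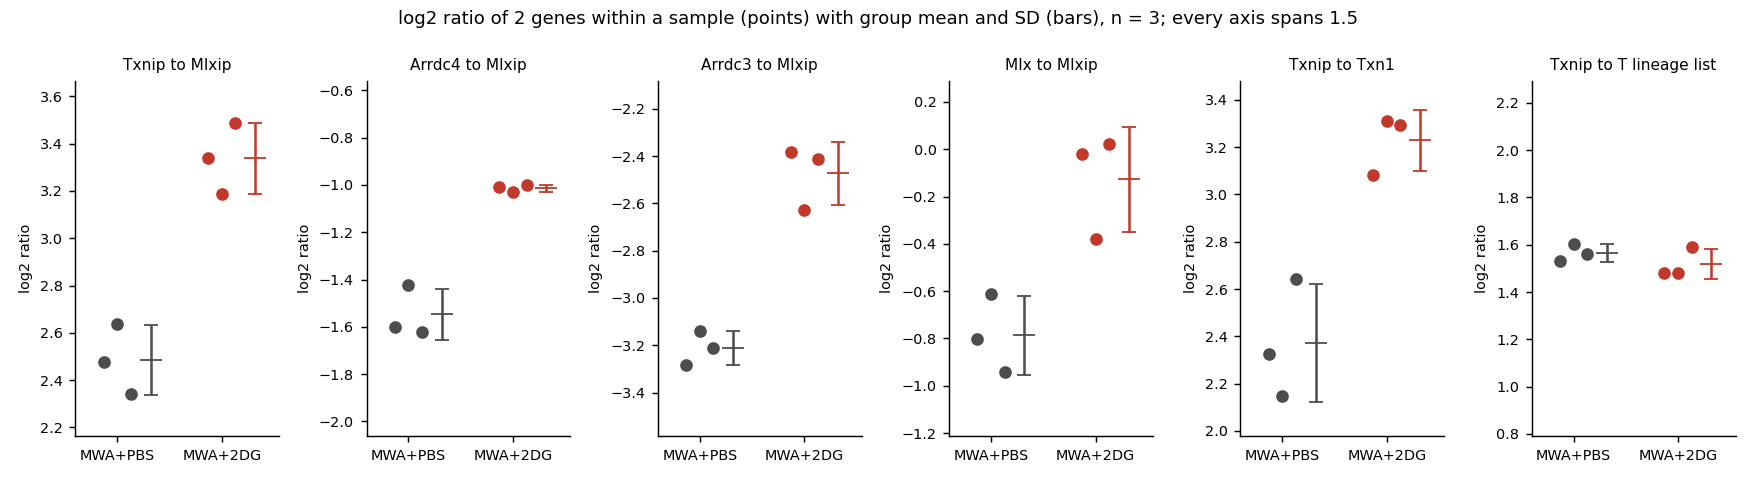
log2 ratio of FPKM + 1 of 2 genes (y axis, of the same length in every panel) within each MWA+PBS (grey) and MWA+2DG (red) sample, with the group mean and SD. The groups are separate in 5 panels and overlap for Txnip against the T lineage list.

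Among the 5 alpha-arrestin genes measured (Txnip and Arrdc1 to Arrdc4), Txnip held 83.9% to 84.4% of the summed FPKM without 2DG and 84.8% to 86.8% with it. Arrdc4 held 4.59% to 5.01% and then 3.58% to 4.24%. Since Txnip makes up most of the sum, its higher level lowers the share of Arrdc4, whose own FPKM did not pass the test. These shares were not tested. The summed level was 234 to 253 FPKM and 296 to 325 FPKM.

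The other genes of the pathway were grouped in 6 lists, with 53 genes listed, 52 matched and 47 tested. Of these, 10 were higher and 12 lower, or 46.8%, against 39.4% of all tested genes. The 5 genes below the filter were Mlxipl, Mxd3, Nlrp3, Pklr and Prkaa2. Mlxipl, which encodes ChREBP, was at most 0.10 FPKM in any sample and was listed at 0 in MWA+PBS replicate 3. Without a filter on low values, the calls given below for Arrdc1, Slc2a1, Txn1, Txnrd2, Rgs16 and Klf10 were lost.

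In the list of factors that share Mlx or Max as a partner, 2 of 7 tested genes were higher and 1 lower, with a median log2 fold change of -0.0009 against 0.046 over all tested genes. Mxd1, a repressor that dimerizes with Max, was 5.35, 5.12 and 4.87 FPKM in MWA+PBS and 6.11, 6.46 and 6.90 FPKM in MWA+2DG (log2 fold change 0.29, limma adjusted p = 0.0124), a call lost without MWA+2DG replicate 6 (limma adjusted p = 0.0509). Myc, which drives growth and glycolytic genes, rose from 60.3 ± 3.69 to 72.6 ± 2.35 FPKM (log2 fold change 0.27, limma adjusted p = 0.0114). Max, the partner of Myc, was 40.14, 39.54 and 40.17 FPKM and 34.62, 31.55 and 35.52 FPKM (log2 fold change -0.23, limma adjusted p = 0.0160), a call lost without MWA+PBS replicate 1 (limma adjusted p = 0.0562). With the T lineage reference Mxd1 and Myc changed sign, to -0.14 and -0.16.

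Of the other alpha-arrestins and the ubiquitin ligases that bind them, 1 of 7 tested genes was higher and 1 lower, with a median of -0.053. Arrdc1, which takes part in vesicle budding at the plasma membrane, was 21.81, 23.28 and 19.48 FPKM in MWA+PBS and 28.18, 26.48 and 24.76 FPKM in MWA+2DG (log2 fold change 0.29, limma adjusted p = 0.0235). The call was lost without MWA+PBS replicate 1 or 3 and without MWA+2DG replicate 4 or 5 (limma adjusted p of 0.0578 to 0.0820), and the value was -0.14 with the T lineage reference. Arrdc2 was 3.29, 2.65 and 2.09 FPKM and 3.30, 2.61 and 2.79 FPKM and did not pass (log2 fold change 0.094, limma adjusted p = 0.607), and its sign turned without MWA+PBS replicate 3 (-0.025, limma adjusted p = 0.891). With the T lineage reference Arrdc2 was called lower (-0.33, limma adjusted p = 0.0310).

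Among the proteins that Txnip and Arrdc3 act on or work with, 2 of 7 tested genes were higher and 3 lower, with a median of -0.0065. The glucose transporter gene Slc2a3 (GLUT3) was 8.37, 7.57 and 7.45 FPKM in MWA+PBS and 14.78, 14.15 and 14.92 FPKM in MWA+2DG. No values overlapped, and the log2 fold change was 0.83 ± 0.062 (SE; limma adjusted p = 6.02e-05). With the T lineage reference Slc2a3 was 0.40 (limma adjusted p = 0.000557). The 8 neutrophil markers rose in the same samples, by log2 fold changes of 2.26 to 4.65, and their part in the Slc2a3 value was not tested. Slc2a1 (GLUT1), the transporter best known to be removed from the surface by Txnip, was 8.44 ± 0.745 and 10.2 ± 0.501 FPKM (log2 fold change 0.25, limma adjusted p = 0.0314). The Slc2a1 call was lost without MWA+PBS replicate 2 or 3 or any MWA+2DG replicate (limma adjusted p of 0.0506 to 0.107) and with median ratio scaling, and with the T lineage reference it was called in the other direction (-0.18, limma adjusted p = 0.0460). Of the thioredoxin genes, Txn1 was 39.73, 47.13 and 30.76 FPKM in MWA+PBS and 30.45, 24.40 and 27.87 FPKM in MWA+2DG (log2 fold change -0.48, limma adjusted p = 0.0387). The lowest MWA+PBS value and the highest MWA+2DG value of Txn1 were nearly level. Txnrd2, the mitochondrial thioredoxin reductase, was 1.97, 2.04 and 2.01 FPKM and 1.37, 1.57 and 1.34 FPKM (log2 fold change -0.31, limma adjusted p = 0.0226). The Txn1 call was lost without MWA+PBS replicate 1 or 2 or any MWA+2DG replicate (limma adjusted p of 0.0509 to 0.114) and with eBayes run without a trend. With a pseudocount of 0.1 the log2 fold change of Txnrd2 was -0.47. The Txnrd2 call was lost without MWA+PBS replicate 1 or 3 or MWA+2DG replicate 4 or 6 (limma adjusted p of 0.0602 to 0.0765).

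In the list of enzymes that make and use glucose 6-phosphate, 1 of 10 genes was higher, 2 were lower and 7 were not called, with a median of -0.039. Hk1, a widely expressed hexokinase, was 22.48, 19.60 and 23.07 FPKM in MWA+PBS and 21.19, 23.10 and 22.68 FPKM in MWA+2DG, and the groups overlapped. Its log2 fold change was 0.04 (95% confidence interval -0.13 to 0.21, limma adjusted p = 0.694), and -0.39 with the T lineage reference (limma adjusted p = 0.00456). Its sign also turned with median ratio scaling and without MWA+PBS replicate 2 (-0.0084 and -0.028). Hk2, the inducible hexokinase, was lower, at 3.26, 3.13 and 3.38 FPKM in MWA+PBS and 1.61, 2.11 and 1.81 FPKM in MWA+2DG (log2 fold change -0.59 ± 0.09, SE, limma adjusted p = 0.00189). Pfkp, the platelet-type phosphofructokinase, was higher, at 16.8 ± 0.343 and 20.5 ± 0.225 FPKM (log2 fold change 0.27, limma adjusted p = 0.00394), and its value was -0.16 with the T lineage reference (limma adjusted p = 0.0292).

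Other genes known to respond to glucose through MondoA or ChREBP moved in both directions, with 2 of 7 tested genes higher and 3 lower and a median of -0.24. Gpd1, a glycerol 3-phosphate dehydrogenase, had the lowest log2 fold change of the 47 genes. It was 7.56, 7.04 and 7.40 FPKM in MWA+PBS and 0.91, 1.06 and 0.66 FPKM in MWA+2DG (log2 fold change -2.16 ± 0.10, SE, limma adjusted p = 5.23e-06). This value lay within the ranges of the macrophage markers (-2.78 to -1.88), the erythroid markers (-2.17 to -1.17) and the immediate early and heat shock genes (-5.64 to -0.54), whose part in it was not tested. Khk, which phosphorylates fructose, fell from 5.65 ± 0.506 to 2.86 ± 0.726 FPKM (log2 fold change -0.80, limma adjusted p = 0.00350). The macrophage and erythroid markers fell further in the same samples, and their part in the Khk value was not tested. Klf10, an early glucose-induced repressor, was 5.17 ± 0.235 and 4.23 ± 0.315 FPKM (log2 fold change -0.24, limma adjusted p = 0.0346), a call lost without MWA+PBS replicate 1 or 3 or MWA+2DG replicate 4 or 5 (limma adjusted p of 0.0609 to 0.118). G0s2, an inhibitor of fat breakdown, was 5.22, 3.51 and 2.64 FPKM and 9.16, 7.99 and 10.80 FPKM (log2 fold change 1.13, limma adjusted p = 0.00305). The 8 neutrophil markers rose in the same samples, with log2 fold changes of 2.26 to 4.65, and their part in the G0s2 value was not tested. Rgs16, a regulator of G protein signalling, was 0.52, 1.44 and 0.43 FPKM and 1.54, 1.71 and 1.98 FPKM (log2 fold change 0.65, limma adjusted p = 0.0385). With a pseudocount of 0.1 the log2 fold change of Rgs16 was 1.20. The Rgs16 call held without MWA+PBS replicate 2 and was lost without any other replicate (limma adjusted p of 0.0691 to 0.113) and with the T lineage reference (0.22, limma adjusted p = 0.333).

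Of the regulators of MondoA and Txnip, 2 of 9 tested genes were higher and 2 lower, with a median of 0.10. Both forkhead factors of the list were called, in opposite directions. Foxo1, which maintains resting T cells, was 21.81, 19.72 and 21.86 FPKM in MWA+PBS and 28.03, 31.25 and 29.70 FPKM in MWA+2DG (log2 fold change 0.47, limma adjusted p = 0.00117). Foxo3 was 17.01, 14.77 and 18.04 FPKM and 11.42, 13.24 and 11.47 FPKM (log2 fold change -0.43, limma adjusted p = 0.00762). Neither overlapped between groups. With the T lineage reference Foxo1 was 0.043 and no longer called (limma adjusted p = 0.641). Foxo3 was still called lower with that reference (-0.86, limma adjusted p = 0.000247), so the opposite directions were called only on the deposited FPKM.

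**Figure D5:**
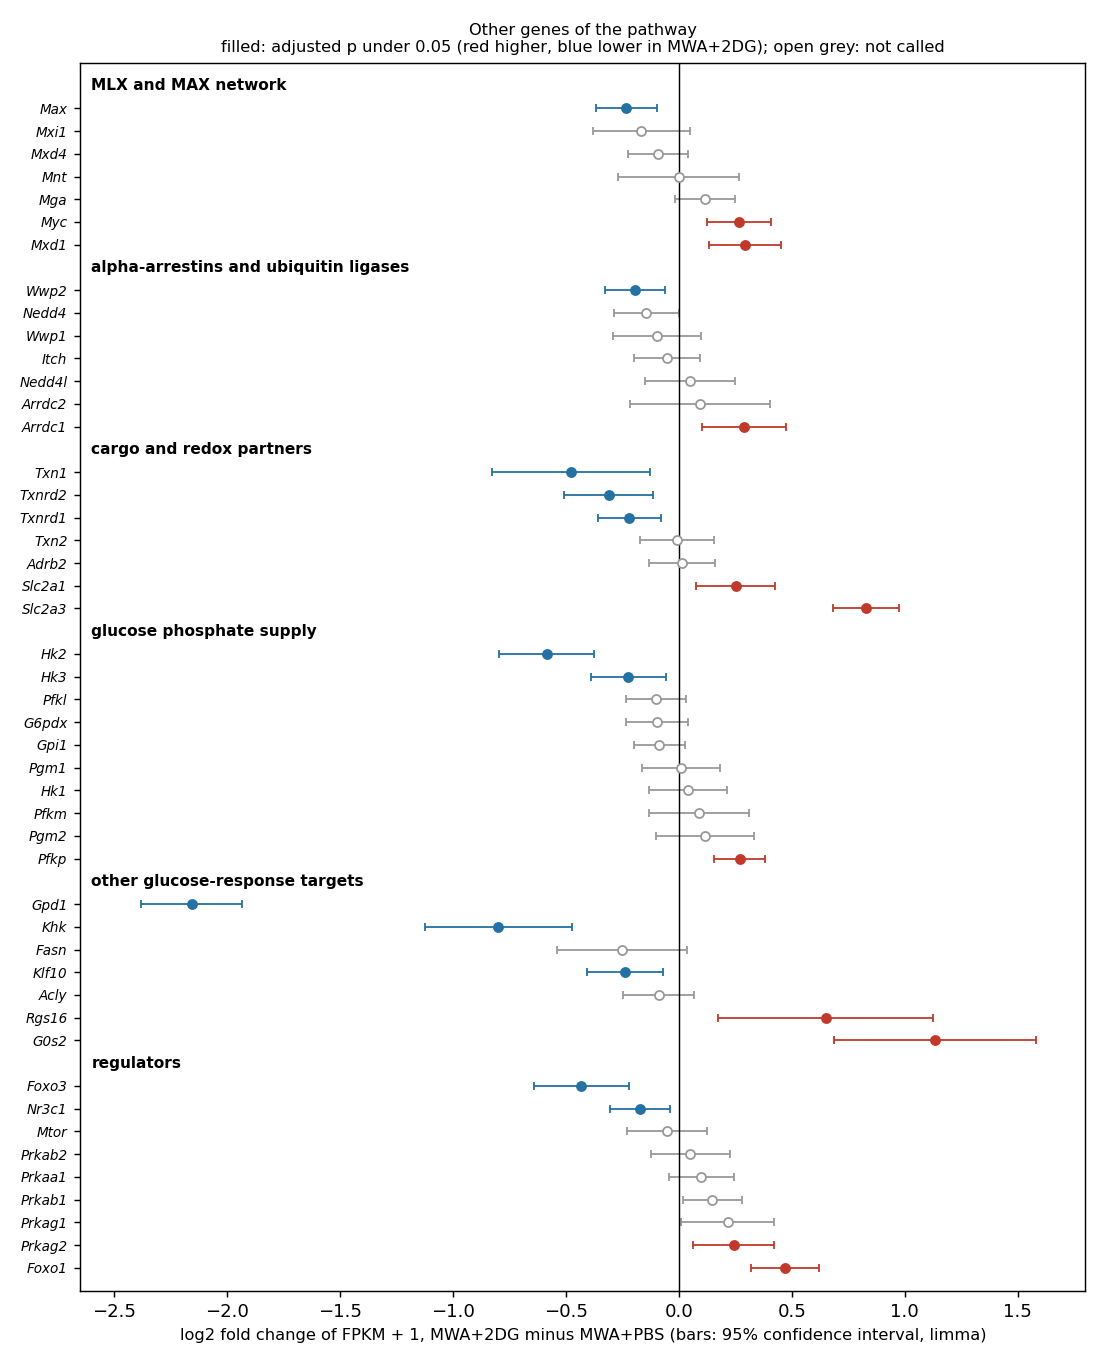
log2 fold changes (x axis, MWA+2DG minus MWA+PBS) with 95% confidence intervals from limma for the 47 tested genes of the 6 lists. Filled points passed an adjusted p under 0.05 (red higher, blue lower in MWA+2DG) and open grey points did not, with Slc2a3 and G0s2 high in their lists and Hk2 and Gpd1 low.

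Of the 14 genes whose promoter window held the direct repeat of E-box-like letters found in Txnip, 7 were tested and 3 were called, Txnip included, which is close to the 39.4% of all tested genes. Fem1b (log2 fold change -0.22, limma adjusted p = 0.0220) and Man2b2 (-0.17, limma adjusted p = 0.0444), named after their values were seen, were lower, and Txnip was higher.

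The genes whose pattern over the 6 samples was most like that of each member were found by the root mean square difference of centred log2(FPKM + 1) values, among 7307 genes with a mean FPKM of at least 5 (7308 for Arrdc3). For Txnip they were Tut1 (0.023), Riok2 (0.027) and Ly9 (0.027), the last a lymphocyte surface receptor. For Mlxip they were Ppt2 (0.017), Qk (0.023) and Rbm14 (0.037), of which Qk and Rbm14 encode RNA-binding proteins. For Arrdc4 they were Kat7, Fyb and Dusp11 (0.011 to 0.018). For Arrdc3 they were Tmem167b, Nfkbid and Polr3gl (0.033 to 0.037), and for Mlx Mad2l1bp, Sdf4 and Clic1 (0.028 to 0.032). These distances are descriptions over 6 samples in 2 groups.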

How the data were processed

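Bulk RNA-seq of splenic CD8+ T cells was analysed in 3 MWA+PBS and 3 MWA+2DG samples, grouped by their GEO titles. Poly(A) libraries were strand-marked and carried molecular identifiers. According to the study's methods and the submitters' processing notes, the authors used fastp, cutadapt 1.9, HISAT2 2.0.4, UMI-tools, StringTie 1.3.4d and ballgown, with a genome build named mm9, and deposited 1 FPKM value per gene for each sample. The strand setting of the counting and the annotation were not given in the sources used here. FPKM holds no read counts, so depth and counting error are unknown.

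Symbols came from the GENCODE M21 table (28689 of 28773 IDs matched). Differences of log2(FPKM + 1), which understate the change of low genes, were tested two-sided with limma 3.58.1 in R 4.3.3 (eBayes with a trend, no covariates) over 12444 genes with a mean FPKM of at least 1, with Benjamini-Hochberg adjustment over all of them. Ratios were tested by exact permutation in scipy 1.17.1. Genes were named if they were members, if a pathway list gene was called with a log2 fold change beyond 0.25, if they were on a short fixed list (Mlxipl, Max, Myc, Arrdc1, Arrdc2, Slc2a1, Slc2a3, Txn1, Hk1, Hk2, Klf10), or if among the 3 nearest to a member. The fit was also run on simulated independent values with few changed genes and no shift of cell types, so that run does not cover such shifts. Motifs were searched in RefSeq promoters (GRCm38.p6), and no coordinates were joined to the expression files. The members, lists and tests were chosen with earlier results of these data known. Alternatives were a pseudocount of 0.1, no filter, a mean FPKM of at least 5, quantile, median ratio and T lineage scaling, scaling without abundant gene classes, eBayes without a trend, the study's thresholds, leaving out each sample and, added later, a block by column number.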

Additional observations from a re-analysis of the deposited data

How the results depend on the processing

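The GEO titles number the samples 1 to 6, while the deposited columns number both groups 1 to 3. Same-numbered columns did not deviate together, with correlations of 0.032, -0.18 and -0.11 across genes. Among the MWA+2DG samples only replicate 4 correlated best with its own number, and replicates 5 and 6 correlated least with theirs. Same-numbered columns were therefore taken to share only a number. A limma fit with the column number as a replicate block, chosen after seeing the data, called 3953 genes in place of 4907. In it Arrdc3 was not called (0.27, adjusted p = 0.0755), nor were Slc2a1, Txn1, Txnrd2, Rgs16 and Klf10, and the other members stayed on the same side of the threshold. Txnip and Mlxip kept their direction and call under every alternative run except T lineage scaling, which ended the call of Txnip. Leaving out each sample gave log2 fold changes of 0.34 to 0.42 for Txnip, -0.52 to -0.43 for Mlxip, 0.034 to 0.086 for Arrdc4, 0.22 to 0.31 for Arrdc3 and 0.14 to 0.28 for Mlx. Arrdc3 was not called without a filter (0.27) or with median ratio scaling (0.23), and at a mean FPKM of at least 5 it was not among the genes tested. Arrdc4 was 0.014 with median ratio scaling. T lineage scaling reversed Txnip (-0.048), Arrdc4 (-0.37), Arrdc3 (-0.16), Mlx (-0.24), Mxd1 (-0.14), Myc (-0.16), Arrdc1 (-0.14), Slc2a1 (-0.18), Pfkp (-0.16), Arrdc2 (-0.33) and Hk1 (-0.39), as its construction requires of values between 0 and 0.43. Hk1 was -0.0084 with median ratio scaling, and leaving out each sample gave -0.028 to 0.084 for Hk1 and -0.025 to 0.21 for Arrdc2. The 4907 genes called became 2951 with a mean FPKM of at least 5, where fewer genes were tested, 9060 with T lineage scaling and 3706 to 5195 with each sample left out. The ratios kept their direction under every alternative run. The cause of the other changes was not tested. How much of the spread is counting error cannot be given, since FPKM carry no depth.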
